A study of Mus musculus with 6 samples.

Results

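The nuclear genes of respiratory complex I were described in macrophages with and without Cd74. Members were all rows whose symbol starts with Nduf, which gave 51 of the 17217 rows of the deposited table. Of these, 39 carry subunit names (Ndufa, Ndufab, Ndufb, Ndufc, Ndufs and Ndufv), 8 are assembly factors (Ndufaf1 to Ndufaf8) and 4 are pseudogene copies (Ndufs5-ps, Ndufa12-ps, Ndufab1-ps and Ndufb4c). Ndufb1-ps was kept among the subunits, since that older symbol belongs to the mouse gene of subunit NDUFB1, although the GENCODE M21 annotation types it as a non-coding RNA. Bulk RNA sequencing covered 3 Control libraries (Cd74 wild type) and 3 Knockout libraries (Cd74-/-) of mouse bone marrow-derived macrophages. All 6 libraries came from marrow of 8-week-old mice. The cells were cultured in M-CSF (macrophage colony-stimulating factor) at 30 ng/mL and stimulated with lipopolysaccharide (LPS) at 100 ng/mL for 24 h, so no library without LPS enters the comparison. The protocol text attached to every library speaks of wild-type animals, and the labels name no sex, strain or form of the Cd74 deletion. The question was how gene expression in these cells differs with loss of CD74, the MHC class II invariant chain and a receptor for the cytokine MIF.

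Complex I takes electrons from NADH and passes them to ubiquinone, and it uses the energy to pump protons across the inner mitochondrial membrane. Its peripheral arm holds the N module, where NADH is oxidised, and the Q module, which hands the electrons on. The membrane arm holds the proton pumps, whose core is encoded by mitochondrial DNA. Core subunits are shared with bacteria, accessory subunits are additions of eukaryotes, and assembly factors build the enzyme without staying in it. In macrophages given LPS, complex I is known as a source of reactive oxygen species.

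Depth was 36445458 to 59236597 reads per library, as recovered from the TPM values (a depth-scaled and length-scaled abundance, in transcripts). Cd74 stood at 607 ± 22.2 TPM in Control and 64.4 ± 1.11 TPM in Knockout (SD, n = 3 each), a limma difference of -3.22 on the log2(TPM + 1) scale (adjusted p = 1.78e-07). Converted to reads at the annotated gene length, Cd74 was whole in 3 of 3 Control and 0 of 3 Knockout libraries. It is 1 of 28 rows of the table that gave no whole reads. All 28 were lower in Knockout, and at the annotated length 21 were whole in all Control libraries alone and 0 in all Knockout libraries alone. The Knockout values of Cd74 are thus no read counts divided by length and depth, and they cannot serve as a check of the labels. All 51 Nduf rows, and every gene of the lists used below, were whole reads in the 6 libraries. Of 12 macrophage markers 8 had a row. Cd14, Cd68 and Lyz2 were abundant, while Mertk, C1qa, C1qb and C1qc had no row. The summed level of the 8 was 10601 to 11146 TPM in Control and 13958 to 15210 TPM in Knockout. By limma, Lyz2 rose from 5373 to 8658 TPM on average, Csf1r, Itgam and Cx3cr1 also rose, and Adgre1 fell by 0.56. The summed level of 3 of 8 neutrophil markers was 17.6 to 18.1 TPM in Control and 23.8 to 29.3 TPM in Knockout, in which S100a8 rose by 1.73 while Csf3r fell by 0.62. Of 6 dendritic cell markers 3 had a row and summed to 5.02 to 7.35 TPM in Control and 5.99 to 6.77 TPM in Knockout. Markers of B cells, erythroid and stromal cells summed to below 1 TPM in every library, and those of T cells had no row. The part of these marker shifts in the results below was not tested. The labels give batch 1 to every Control library and batch 2 to every Knockout library, and the effects of batch and genotype cannot be told apart. Whether replicates are separate mice or separate cultures is not labelled, and the p-values may reflect technical spread only. In bulk RNA a shift in the mix of cells and a change of RNA per cell cannot be told apart.

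Complex I genes differed little between the groups. Of 48 Nduf rows whose mean level reached 1 TPM, limma called 7 higher and 1 lower in Knockout at an adjusted p under 0.05. These are shares of 14.6% and 2.08%, beside 18.5% called higher and 10.1% called lower among all 13034 tested rows. The calls were 6 of 37 tested subunits higher and 0 lower, and 1 of 8 assembly factors higher and 1 lower. Differences below are Knockout minus Control on the log2(TPM + 1) scale. The median difference was 0.11 for subunits and 0.11 for assembly factors, against 0.04 for all tested rows. A positive difference was found in 32 of 37 subunits and 5 of 8 assembly factors, beside 56.2% of all tested rows. In this limma fit the 95% interval lay within a 1.5-fold change in either direction for all 45 tested subunits and assembly factors. It lay within 1.2-fold for 18 of them. The interval of Ndufs8 reached 0.584, only just inside the 1.5-fold limit, and intervals from other fits were not examined. Groups did not overlap for 16 of the 48 rows in the higher direction (33.3%) and 2 in the lower (4.17%), beside 30.2% and 19.8% of all tested rows. Leaving out Control replicate 3 left 0 subunits and 0 assembly factors called, and leaving out 1 library at a time gave 0 to 7 subunits called higher.

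**Figure D1:**
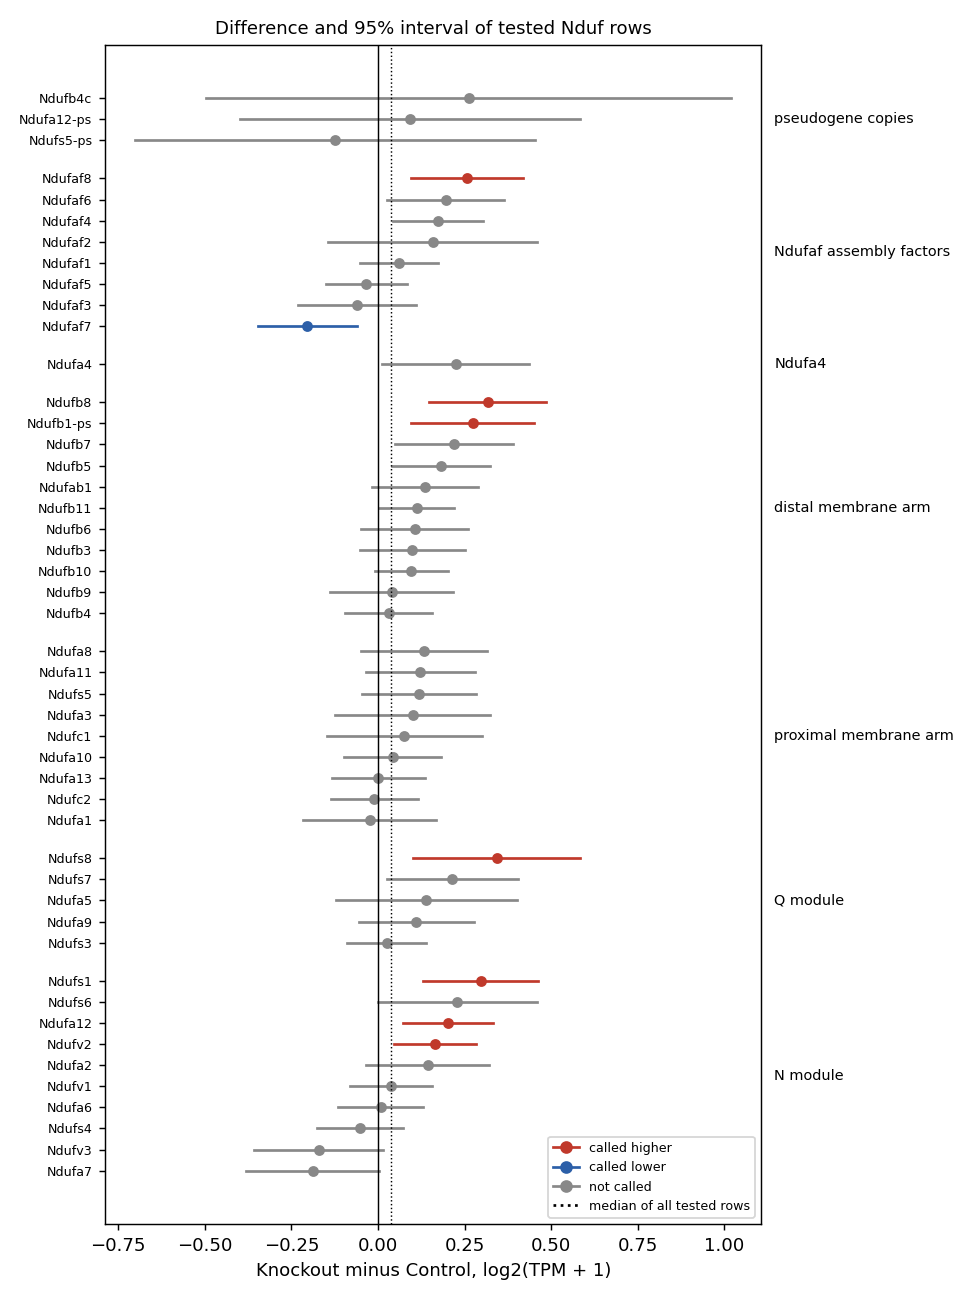
Difference between Knockout and Control, in log2(TPM + 1), for tested Nduf rows, grouped by place in the enzyme. Points are limma estimates, bars are 95% intervals, red and blue mark rows called higher and lower, and the dotted line is the median of all tested rows at 0.04.

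Subunit genes spanned a wide range of levels and assembly factors a lower one. The median level over the 6 libraries was 103 TPM for the 37 tested subunits, from 17.9 TPM for Ndufab1 to 285 TPM for Ndufa2. Ndufab1 encodes the mitochondrial acyl carrier protein, and Ndufa2 encodes a small subunit of the N module. Ndufc2 (281 TPM), Ndufb3 (273 TPM) and Ndufa8 (269 TPM) followed Ndufa2 closely, and the libraries of these genes overlapped in level. The 8 assembly factors had a median of 30.2 TPM, from 13.3 TPM for Ndufaf2 to 61.5 TPM for Ndufaf1. Replicates lay close together, with a median coefficient of variation of 4.98% in Control and 5.91% in Knockout over the subunits. Tested subunits rested on 449 to 10970 recovered reads per library and assembly factors on 296 to 3516.

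**Figure D2:**
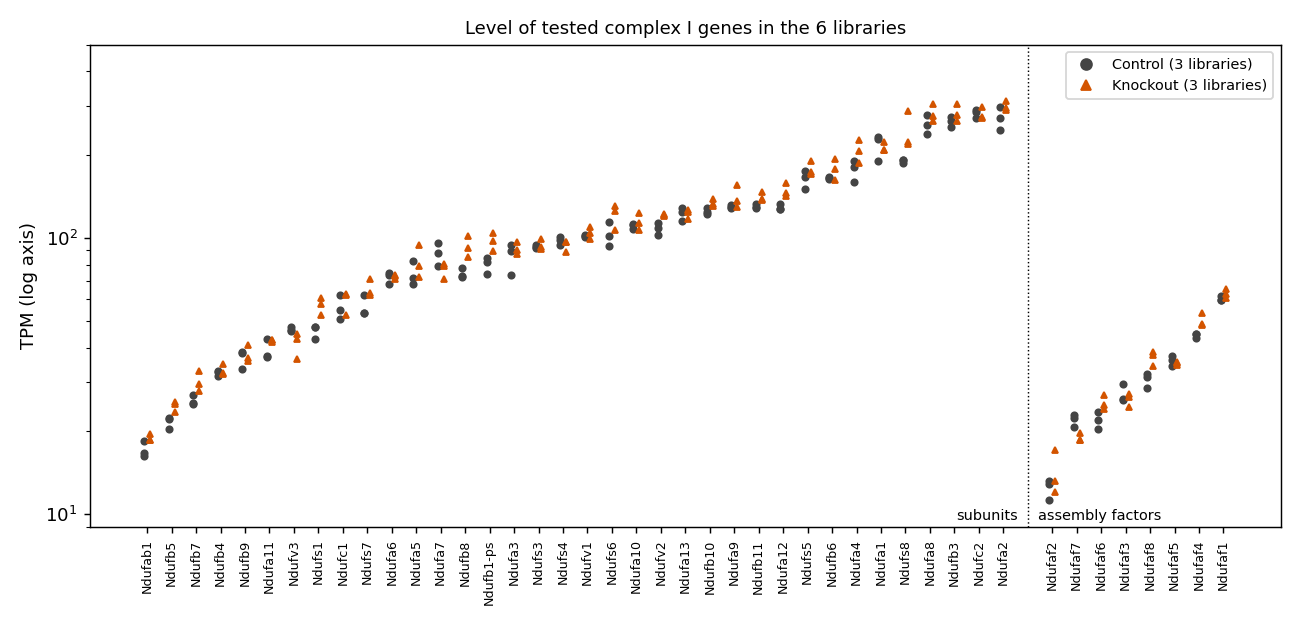
Level in TPM (log axis) of tested subunits and the 8 tested assembly factors, sorted by mean level within each class. Each gene has 3 Control circles and 3 Knockout triangles, and the groups lie close together, with subunits mostly above assembly factors.

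TPM divides by the length of all annotated exons, and these lengths moved the order of levels. In GENCODE M21 the union of exons was a median of 1.58 times the principal transcript for the 36 tested subunits that have one annotated, and over 2 times for 9 of them. It was 7.26 times for Ndufb7, 4.63 times for both Ndufb8 and Ndufb5, and 3.46 times for Ndufa7. Rescaled to the principal transcript, Ndufb8 moved from rank 23 to rank 2 among the 46 members with such a length. On the same rescaling Ndufb7 moved from rank 38 to 14, and Ndufa4 became the highest. Assembly factors stayed lower under both lengths, with a median of 45.7 against 181 after rescaling. The rescaled values credit all reads of a gene to its principal transcript. They were not renormalised over all genes, so they are not TPM. The annotated length of a gene is the same in both groups, so differences between Knockout and Control do not depend on it apart from the pseudocount. Whether the transcripts in use differed in length between the groups was not tested.

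**Figure D3:**
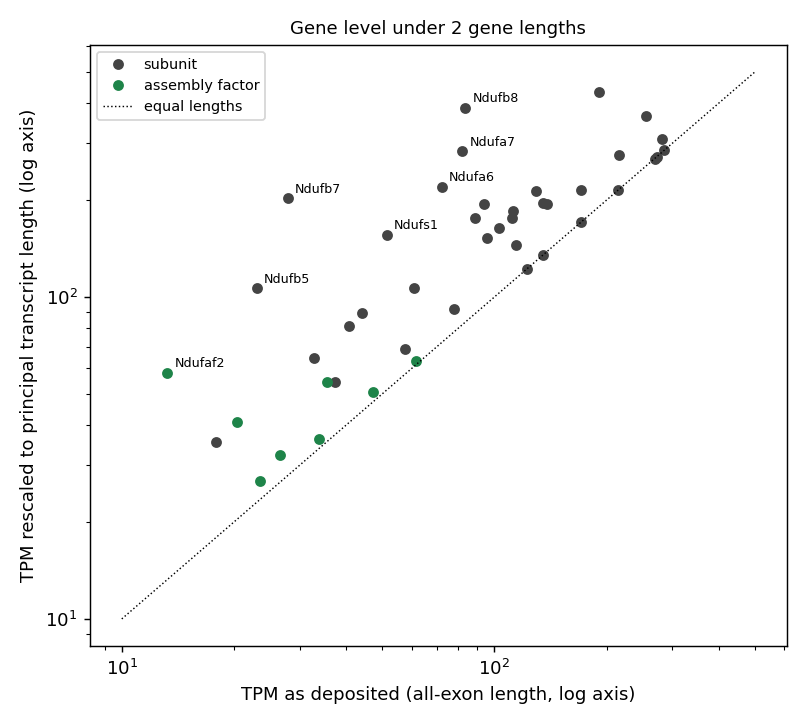
Level of the 36 tested subunits with a principal transcript (grey) and of each assembly factor (green), on log axes. The x axis is TPM as deposited. The y axis is that value rescaled to the principal transcript length, without renormalising over all genes. Ndufb1-ps, a called subunit without such a length, is not drawn. Genes with an exon union over 3 times the principal transcript are named and lie far above the dotted line of equal lengths.

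In the N module 3 of 10 tested genes rose (30%) and 0 fell, with a median difference of 0.09, beside 18.5% and 10.1% of all tested rows and their median of 0.04. Ndufs1, the largest subunit and a carrier of iron-sulphur clusters, had levels of 42.9, 47.7 and 47.5 TPM in Control (replicates 1 to 3, as in each listing below) and 52.4, 57.3 and 60.6 TPM in Knockout. The groups did not overlap, and the difference was 0.30 (SE 0.07, limma adjusted p = 0.0210). Its call was lost without Control replicate 1 or 3 or Knockout replicate 2 (adjusted p of 0.0110 to 0.0639 over the alternatives). Exons of Ndufs1 share 498 bases with genes on the other strand, Eef1b2 among them, and no source used here says whether the counting used strand.

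Ndufa12, an accessory subunit, stood at 127, 132 and 127 TPM in Control and at 141, 145 and 158 TPM in Knockout, again without overlap. It rose by 0.20 (SE 0.05, limma adjusted p = 0.0321), a call lost without Control replicate 1, 2 or 3 or Knockout replicate 2, under both scalings of the columns and in limma-voom on recovered reads (adjusted p of 0.0258 to 0.103). Ndufv2, an iron-sulphur subunit beside the NADH site, stood at 102, 108 and 113 TPM in Control and 120, 122 and 121 TPM in Knockout. The Knockout libraries lay within 3 TPM of each other and above every Control library, and the difference was 0.17 (SE 0.05, limma adjusted p = 0.0464). The Ndufv2 call was lost in 11 of 15 alternatives, among them the removal of any 1 library (adjusted p of 0.0386 to 0.132).

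At the other end of the module were Ndufa7 and Ndufv3, accessory subunits with the lowest differences among the tested subunits, neither called by limma. Ndufa7 stood at 95.5, 78.9 and 88.3 TPM in Control and 80.2, 78.9 and 70.8 TPM in Knockout, and the groups overlapped (difference -0.19, adjusted p = 0.125). Ndufv3 stood at 47.4, 46.1 and 46.4 TPM in Control and 43.1, 44.8 and 36.4 TPM in Knockout, without overlap (difference -0.17, adjusted p = 0.145). Without Knockout replicate 3 the difference of Ndufv3 was -0.08, and without Control replicate 1 that of Ndufa7 was -0.12. Ndufv1, which binds NADH and flavin, had a difference of 0.04 with a 95% interval of -0.08 to 0.16, and turned to -0.0015 after median-of-ratios scaling. Ndufs4, whose deletion in mice gives a model of mitochondrial encephalopathy, had a difference of -0.05 (interval -0.18 to 0.07). Ndufs6 (0.23), Ndufa2 (0.14) and Ndufa6 (0.01) were not called either.

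In the Q module 1 of 6 tested genes rose (16.7%, beside 18.5% of all tested rows) and 0 fell, and all 6 differences were positive, with a median of 0.14. Ndufs8, a carrier of iron-sulphur clusters, stood at 186, 192 and 191 TPM in Control and at 219, 222 and 288 TPM in Knockout. All Knockout libraries were above all Control libraries, with Knockout replicate 3 well above the other two. The difference was 0.34 (SE 0.10, limma adjusted p = 0.0442), and 0.215 without Knockout replicate 3 (adjusted p = 0.00983). Its call was lost without any single Control library or Knockout replicate 2, with no filter and under both scalings (adjusted p of 0.00983 to 0.119).

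Ndufs7, which carries the last iron-sulphur cluster before ubiquinone, stood at 62.0, 53.2 and 53.3 TPM in Control and at 62.1, 62.9 and 71.0 TPM in Knockout. The highest Control library was level with the lowest Knockout library to within 1 TPM, and the row was not called (difference 0.21, adjusted p = 0.0851). Ndufs3 differed by 0.02 (interval -0.09 to 0.14), Ndufa5 by 0.14 and Ndufa9 by 0.11, and their groups overlapped.

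The 7 nuclear-encoded core subunits lie in these modules. Of them 3 rose (42.9%), 0 fell and 4 were not called, beside 18.5% of all tested rows called higher and 10.1% called lower. The median difference of the 7 was 0.17, beside 0.04 for all tested rows. Groups did not overlap for 5 of the 7, all higher in Knockout, beside 30.2% of all tested rows. Of 29 tested accessory subunits 3 rose (10.3%) and 0 fell, with a median of 0.11. The difference between core and accessory subunits was not tested.

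In the proximal membrane arm 0 of 9 tested genes rose or fell by limma, beside 18.5% and 10.1% of all tested rows. An unadjusted p under 0.05 was reached by 0 of the 9, beside 5518 of all 13034 tested rows. The replicate groups overlapped for all 9, whereas they did not overlap for 50% of all tested rows. The median difference of the 9 was 0.08, beside 0.04 for all tested rows. Differences ran from -0.02 for Ndufa1 to 0.13 for Ndufa8. Ndufa13, which encodes the protein also known as GRIM-19, stood at 124, 115 and 128 TPM in Control and 124, 117 and 126 TPM in Knockout (difference 0.0016, interval -0.13 to 0.14). Ndufc2 likewise stood at 286, 290 and 271 TPM and at 271, 273 and 297 TPM (difference -0.01, interval -0.14 to 0.12). Limma-voom on recovered reads called 0 of the 9 as well. Without Control replicate 1, Ndufa11 was called higher.

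In the distal membrane arm 2 of 11 tested genes rose (18.2%, beside 18.5% of all tested rows) and 0 fell, and all 11 differences were positive, with a median of 0.11. Ndufb8, an accessory subunit of the distal tip whose protein is a common marker of assembled complex I, stood at 78.0, 72.1 and 72.5 TPM in Control. In Knockout it stood at 85.4, 91.7 and 102 TPM, all above Control. The difference was 0.32 (SE 0.07, limma adjusted p = 0.0178), and the call was lost without Control replicate 2 or 3 (adjusted p of 0.0135 to 0.0657). Exons of Ndufb8 share 134 bases with the same-strand gene Gm20538. Ndufb1-ps stood at 84.3, 73.7 and 81.9 TPM in Control and 89.2, 104 and 97.5 TPM in Knockout. It rose by 0.27 (SE 0.08, limma adjusted p = 0.0341), a call lost in 9 of 15 alternatives, among them the removal of any single library other than Knockout replicate 1 (adjusted p of 0.0250 to 0.1002).

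Groups did not overlap for 7 of the 11 distal genes (63.6%), all higher in Knockout, beside 30.2% of all tested rows. The 5 of these that were not called were Ndufb7 (0.22), Ndufb5 (0.18), Ndufab1 (0.14), Ndufb11 (0.11) and Ndufb10 (0.10). Ndufab1 stood at 18.3, 16.7 and 16.2 TPM in Control and 18.5, 18.6 and 19.4 TPM in Knockout (adjusted p = 0.154). Ndufb3, one of the most abundant members, stood at 252, 273 and 265 TPM in Control and 264, 277 and 306 TPM in Knockout (difference 0.10, adjusted p = 0.284). Ndufb2 had a mean of 0.968 TPM and was not tested. It held 40, 121 and 72 reads in Control and 96, 98 and 91 reads in Knockout, far fewer than the other subunits of the arm. The exon union of Ndufb2 is 5628 bases long. It shares 145 bases with the same-strand gene Gm42420 and 302 with Braf and Gm16272 on the other strand. Whether the annotation bears on the low read count was not tested.

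Ndufa4 carries a complex I name, but its protein is now placed in complex IV, and Ndufa4l2 is its hypoxia-induced relative. Ndufa4 stood at 159, 180 and 190 TPM in Control and 186, 205 and 227 TPM in Knockout, with overlap, and was not called (difference 0.23, adjusted p = 0.102). In limma with a replicate block it was called higher (adjusted p = 0.0186). Ndufa4l2 was below the filter and ran the other way. It stood at 0.645, 0.910 and 0.759 TPM in Control and at 0.153, 0.349 and 0.109 TPM in Knockout, without overlap. These values rest on 8, 16 and 13 reads and on 3, 6 and 2 reads. In limma with no filter on low values the difference was -0.56 (SE 0.11, adjusted p = 0.0190).

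Of the 8 assembly factors 1 rose, 1 fell and 6 were not called, shares of 12.5% each way beside 18.5% higher and 10.1% lower among all tested rows. Ndufaf8, which stabilises NDUFAF5, stood at 31.3, 28.5 and 32.2 TPM in Control and 34.3, 37.7 and 38.7 TPM in Knockout. It rose by 0.26 (SE 0.07, limma adjusted p = 0.0312), with no overlap. Ndufaf7, an arginine methyltransferase, stood at 22.4, 22.8 and 20.7 TPM in Control and 18.5, 19.7 and 18.5 TPM in Knockout. It fell by 0.20 (SE 0.06, limma adjusted p = 0.0432), and it was the 1 tested Nduf row called lower. Neither call held in every alternative. That of Ndufaf8 was lost in 8 of 15 alternatives, including the removal of any library other than Knockout replicate 1 (adjusted p of 0.0246 to 0.151). That of Ndufaf7 was lost in 8, including the removal of any 1 library, and was kept under both scalings and in limma-voom (adjusted p of 0.0212 to 0.129).

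Ndufaf3 and Ndufaf4, partners in building the Q module, differed by -0.06 and 0.17. Ndufaf4 stood at 44.9, 44.7 and 43.5 TPM in Control and 48.4, 48.7 and 53.6 TPM in Knockout, without overlap, and just missed the threshold (adjusted p = 0.0526). Ndufaf6 did not overlap either (difference 0.20, adjusted p = 0.0798). Ndufaf5, which hydroxylates NDUFS7, stood at 37.4, 36.1 and 34.5 TPM in Control and 34.7, 35.4 and 35.2 TPM in Knockout (difference -0.03, interval -0.15 to 0.08). Ndufaf1, a factor of the membrane arm, differed by 0.06. Ndufaf2, a relative of NDUFA12, differed by 0.16 with a wide interval of -0.14 to 0.46. That difference was 0.02 without Knockout replicate 3, 0.09 without Control replicate 1 and 0.26 without Knockout replicate 1, and 1955 of its exon bases are shared with B230220B15Rik on the other strand.

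The spread across libraries showed where the small upward shift of the subunits sat. The summed level of the 39 subunit rows came to 4349, 4215 and 4415 TPM in Control and to 4475, 4611 and 4964.5 TPM in Knockout. Knockout replicate 3 was the highest library for 25 of the 37 tested subunits and Control replicate 2 the lowest for 15. Such counts were not made over all tested rows. Knockout replicate 3 lay above its group mean for 30 of the 37, beside 6146 of all 13034 tested rows. Control replicate 2 lay above its group mean for 14 of the 37, beside 7742 of the 13034. The subunit median stood 0.07 above that of all tested rows, and 0.03 above it without Knockout replicate 3, 0.05 without Control replicate 2 and 0.11 without Knockout replicate 1. The corresponding values for the assembly factors were 0.07 and 0.0087 without Knockout replicate 3, and 0.04 without Control replicate 1. After median-of-ratios scaling, in which the median of all tested rows was 0.0028, the subunit median was 0.07, and 27 of 37 subunits were positive. The Nduf rows called under that scaling were Ndufb8, Ndufs1 and Ndufaf7, beside 14% of all rows called higher and 13.2% called lower (1821 and 1715 rows, against 2406 and 1313 unscaled).

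**Figure D4:**
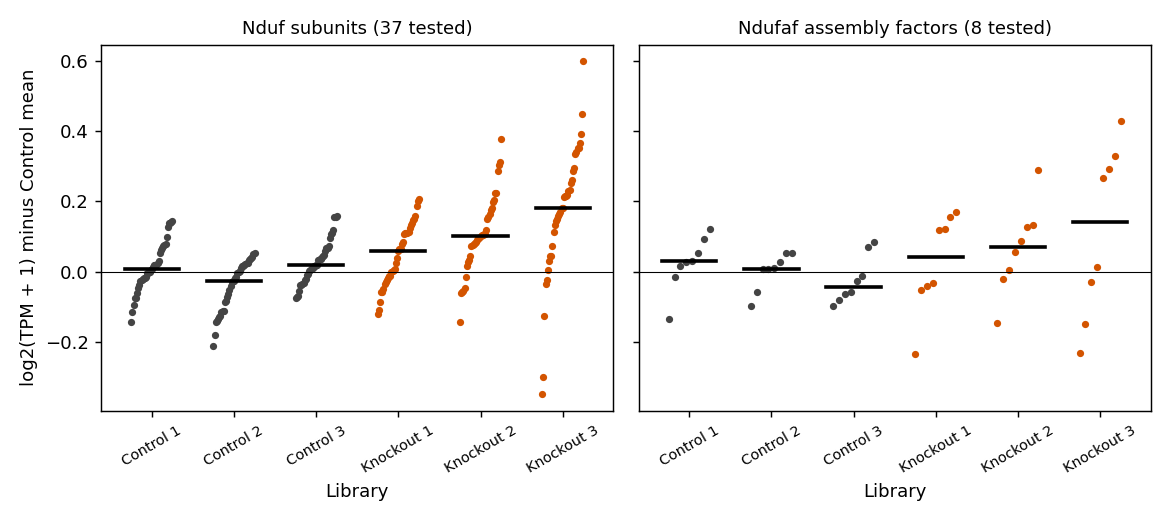
Each point is 1 tested gene in 1 library, as log2(TPM + 1) minus the mean of the 3 Control libraries, for subunits (left) and assembly factors (right), and thick bars are medians. The subunit medians are 0.06, 0.10 and 0.18 in Knockout replicates 1 to 3 and -0.03 to 0.02 in Control.

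The pseudogene copies gave no call. Ndufa12-ps stood at 54.9, 32.5 and 57.2 TPM in Control and 54.8, 52.6 and 43.2 TPM in Knockout (difference 0.09, interval -0.40 to 0.58). Ndufs5-ps and Ndufb4c had means of 3.37 and 1.14 TPM and were not called, and Ndufab1-ps, at 0.876 TPM, was not tested. Reads of such copies may have been shared with their parent genes Ndufa12, Ndufs5, Ndufb4 and Ndufab1.

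Promoters are shown for the called genes with the largest rises that had a RefSeq entry and for the called gene that fell. RefSeq sequences on GRCm38.p6, 250 bases before to 50 after each start, were found for 40 of the 51 members. Ndufs1, Ndufa2, Ndufb9, Ndufaf6, Ndufa4l2, Ndufb1-ps and the 4 copies were among those without an entry. The sequences run 5′ to 3′ on the gene's strand, at chr19:44555393-44555692 (minus) for Ndufb8, chr19:3912725-3913024 (minus) for Ndufs8, chr11:120098684-120098983 (plus) for Ndufaf8 and chr17:78936885-78937184 (plus) for Ndufaf7. Capitals mark matches on either strand to the NRF1 motif, CCGGAAG (ETS factors such as GABPA), AGATGGC (YY1) or AAGGTCA (ERR alpha), motifs of known regulators of mitochondrial genes.
Ndufb8: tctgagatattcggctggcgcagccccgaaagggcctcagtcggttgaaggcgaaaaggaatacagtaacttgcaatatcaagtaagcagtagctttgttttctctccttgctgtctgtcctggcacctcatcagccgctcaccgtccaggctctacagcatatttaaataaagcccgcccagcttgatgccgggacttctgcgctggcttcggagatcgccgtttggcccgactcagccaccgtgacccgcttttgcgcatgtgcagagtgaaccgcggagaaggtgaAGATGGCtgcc
Ndufs8: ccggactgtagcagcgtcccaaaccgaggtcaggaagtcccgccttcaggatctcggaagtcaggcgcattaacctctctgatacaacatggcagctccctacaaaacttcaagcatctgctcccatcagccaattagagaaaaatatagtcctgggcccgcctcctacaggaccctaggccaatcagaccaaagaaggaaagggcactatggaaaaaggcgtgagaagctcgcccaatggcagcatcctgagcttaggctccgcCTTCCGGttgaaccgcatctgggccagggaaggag
Ndufaf8: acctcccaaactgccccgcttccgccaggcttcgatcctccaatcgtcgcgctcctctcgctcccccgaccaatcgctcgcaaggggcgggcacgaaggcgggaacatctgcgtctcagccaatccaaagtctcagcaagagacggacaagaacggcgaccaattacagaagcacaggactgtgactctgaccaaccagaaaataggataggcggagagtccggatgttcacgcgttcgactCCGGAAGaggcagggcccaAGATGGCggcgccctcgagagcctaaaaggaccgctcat
Ndufaf7: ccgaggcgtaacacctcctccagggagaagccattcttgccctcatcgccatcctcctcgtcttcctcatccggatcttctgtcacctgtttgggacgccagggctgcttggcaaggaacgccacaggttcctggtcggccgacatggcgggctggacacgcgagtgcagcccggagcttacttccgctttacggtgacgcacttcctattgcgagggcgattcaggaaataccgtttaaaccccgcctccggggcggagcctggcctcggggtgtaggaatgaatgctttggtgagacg

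Ndufb8 held a YY1 match at base 290, Ndufs8 an ETS match at base 266, and Ndufaf8 an ETS match at base 243 and a YY1 match at base 262. The matches at bases 262, 266 and 290 lie in the 50 bases after the annotated start, not upstream of it. No letters of the Ndufaf7 window matched. The windows of Ndufa12 and Ndufv2, the other called genes that rose and had an entry, held no match either. At least 1 of the motifs was present in 19 of 33 subunit promoters (57.6%) and 4 of 7 assembly factor promoters (57.1%), beside 39.6% of the 9126 tested genes with an entry. The NRF1 motif was in 21.2% of subunit promoters against 12.3% of tested genes, the YY1 motif in 24.2% against 9%, the ETS motif in 12.1% against 21.6% and the ERR alpha motif in 9.09% against 3.90%. Over all 27025 genes with an entry these shares were 5.19%, 7.31%, 9.93% and 5.38%. Such matches are letters in a window, and binding was not measured.

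Among known regulators of mitochondrial biogenesis, Esrra, which encodes ERR alpha, fell from 35.9 ± 1.39 to 30.5 ± 2.18 TPM (SD, n = 3 each), a difference of -0.23 (limma adjusted p = 0.0373). That call was lost without any single Control library, without Knockout replicate 1 or 2 and with no filter. It was the 1 call among 9 tested regulators (11.1%), with 0 higher, beside 10.1% of all tested rows called lower and 18.5% called higher. Nrf1 (0.14), Gabpa (0.11), Yy1 (-0.04) and the mitochondrial transcription factor gene Tfam (0.12) were not called, and Ppargc1a had no row.

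The other genes of complex I came from lists of assembly genes without the Nduf name and of mitochondrially encoded subunits. Of 13 tested assembly genes 1 rose (7.69%) and 0 fell, beside 18.5% and 10.1% of all tested rows. The median difference of the 13 was 0.09, beside 0.04 for all tested rows. Groups did not overlap for 3 of the 13 (23.1%), all higher in Knockout, beside 30.2% of all tested rows. Tmem186 rose from 16.7 ± 1.84 to 20.9 ± 1.41 TPM (SD, n = 3 each), by 0.31 (limma adjusted p = 0.0387), a call lost in 9 of 15 alternatives, among them the removal of any library but Control replicate 3. Ecsit, which also acts in Toll-like receptor signalling, stood at 24.5, 23.9 and 24.3 TPM in Control and 26.7, 27.3 and 25.7 TPM in Knockout, without overlap, and was not called (difference 0.13, adjusted p = 0.0944). Timmdc1, Tmem126b and Acad9, partners in assembly of the membrane arm, differed by 0.08, 0.09 and 0.09.

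Of the 7 mitochondrially encoded subunits 4 rose (57.1%) and 0 fell, with a median of 0.39, beside 18.5% and 10.1% of all tested rows. Summed over the 7 genes, levels were 10609, 13021 and 12862 TPM in Control and 14515, 15084 and 18163 TPM in Knockout, with Control replicate 1 lowest and Knockout replicate 3 highest. The rises were mt-Nd1 (0.67), mt-Nd3 (0.62), mt-Nd2 (0.46) and mt-Nd4l (0.39), while mt-Nd4 (0.16), mt-Nd6 (0.11) and mt-Nd5 (0.07) were not called. All 4 calls but that of mt-Nd3 were lost without Control replicate 1. The calls of mt-Nd2 and mt-Nd4l were also lost without Control replicate 3 or Knockout replicate 2, that of mt-Nd4l without Knockout replicate 1, and those of mt-Nd3 and mt-Nd4l in limma-voom. mt-Nd3 and mt-Nd4l stood at 1.39 ± 0.107 and 6.13 ± 0.694 TPM in Control (SD, n = 3), far below the other mitochondrially encoded subunits. Nuclear copies of mitochondrial DNA may share such reads.

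Side by side with the other nuclear-encoded respiratory complexes, more genes were called. Of 38 tested genes of complexes II to V, 15 rose (39.5%) and 1 fell (2.63%), with a median of 0.19, beside 18.5% and 10.1% of all tested rows. The counts were 2 of 4 higher in complex II, 5 of 9 higher and 1 lower in complex III, 3 of 10 higher in complex IV and 5 of 15 higher in complex V. Sdhd of complex II rose by 0.48 and Uqcr11 of complex III by 0.44, whereas Uqcrq of complex III fell by 0.29, and these calls, with that of Atp5g3, held in all 15 alternatives. The other 12 of the 16 calls were lost in at least 1 alternative, those of Sdha and Atp5b in 11. Knockout replicate 3 was above its group mean for 36 of these 38 genes and for 30 of the 37 Nduf subunits, beside 6146 of all 13034 tested rows. Nduf rows lay mostly among abundant genes and genes with short exon unions. Of the 45 tested subunits and assembly factors 30 were among the 3259 tested rows with the highest levels (from 51.7 TPM upward), of which 29.2% were called higher and 13.8% lower, with a median difference of 0.065. Among the 3253 tested rows with the shortest exon unions (up to 1988 bases), which held 29 of the 45, 11.9% were called higher and 7.22% lower, with a median of 0.043. The difference between complex I and the other complexes was not tested.

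**Figure D5:**
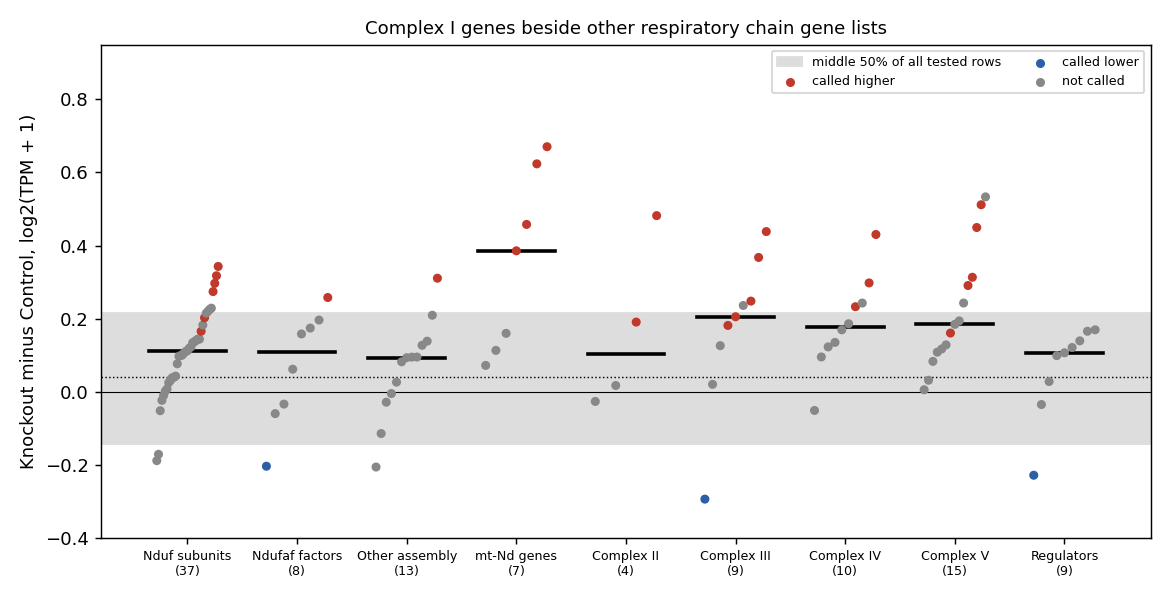
Difference between Knockout and Control, in log2(TPM + 1), of every tested gene in 9 gene lists, with the number tested in brackets. Thick bars are list medians, the grey band is the middle 50% of all tested rows, and 28 of the 37 Nduf subunit rows lie within it. Ndufa4 is counted among the 37.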

How the data were processed

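The deposited table gives 1 value per gene and library in TPM, computed by the authors. No header names the unit, which was inferred from column sums of 991721 to 998572 and from steps in low values. Per the submitters' processing notes, GRCm39 and DESeq2 are named without a role. No source used here names the aligner, counter or annotation.

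Reads were recovered as TPM times the GENCODE M21 union exon length divided by a step per library. Within 0.02 of a whole read in each library lay 16482 rows (95.7%), 707 more were whole at another length (tolerance 0.003 read), and 28 rows, none of them Nduf, were not.

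Limma 3.58.1 in R 4.3.3 (eBayes, trend and robust) compared the groups on log2(TPM + 1) in the 13034 rows whose mean reached 1 TPM, two-sided, with Benjamini-Hochberg adjustment and a threshold of 0.05. Batch could not enter the model. Limma-voom on recovered reads and removal of the 28 rows were alternatives added after seeing the data. A count model was also run on those reads and is not reported, since the deposited unit is TPM. The limma script was tested on simulated data.

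Members and lists were chosen with earlier results of these data known. Named genes were all called Nduf rows, the core subunits, the Ndufa4 pair, the 5 highest and 5 lowest, the 3 largest differences either way per class, untested rows, and up to 4 called genes per other list. Others were named to complete a module. 1 gene that the rule names is counted in all totals but not reported here by name or drawn with a label.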

Additional observations from a re-analysis of the deposited data

How the results depend on the processing

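The Nduf calls depended on scaling and on single libraries, while the 8 called differences kept their sign in the alternatives run. With median-of-ratios and upper-quartile scaling 2 subunits and 0 assembly factors were called higher, and 11 genes of the other lists. The assembly factor median was then 0.0717 and 0.0563, and the subunit median 0.0565 under the latter. Limma-voom on recovered reads called 3 subunits, 0 assembly factors and 13 genes of the other lists higher, beside 2062 rows (15.9%) of the whole table. It called Ndufaf7 lower, beside 1989 rows (15.3%) of the whole table, and the assembly factor median was 0.0642. With no filter 1 subunit (Ndufa4l2), 0 assembly factors and 1 other list gene were lower. A filter at 5 TPM gave 2 assembly factors higher. Leaving out 1 library at a time gave 1312 to 2094 rows higher and 666 to 1222 lower over the whole table. It gave 0 to 7 subunits higher, 0 to 1 assembly factors higher and 0 to 0 lower, 8 to 16 genes of the other lists higher and 1 to 2 lower. The subunit median was then 0.0738 to 0.1478 and the assembly factor median 0.0546 to 0.1294. Among the rows named by the rule above, signs turned for 5 that were not called. Rows named only to complete a module were not followed in this way. Positive differences were found in 32 of 37 subunits in the main fit. There were 27 under median-of-ratios scaling, 25 under upper-quartile scaling and 26 by limma-voom. Ndufs3 was -0.0146 and -0.0305 under the scalings, -0.0203 by limma-voom and -0.0110 to 0.0493 with 1 library left out. Ndufv1 was -0.0015, -0.0174 and -0.0057 under the same 3 settings. With 1 library left out Ndufc2 ranged from -0.0526 to 0.0133, Ndufaf3 from -0.0921 to 0.0009 and Ndufs5-ps from -0.3739 to 0.1343. The cause was not tested.

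Libraries with the same replicate number did not deviate together (correlations of 0.13, -0.08 and 0.03), so the numbers were not taken as pairs. With a replicate block 2331 rows were higher and 1380 lower, 5 subunits and 1 assembly factor were higher, and 0 assembly factors were lower.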

Other observations

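Ratios of TPM between an assembly factor and a protein it acts on or with were computed within each library, as a description with no test. Ndufaf5 over Ndufs7, the hydroxylase and its substrate, was 0.602, 0.678 and 0.647 in Control and 0.558, 0.563 and 0.497 in Knockout, without overlap. Ndufaf8 over Ndufaf5, which act together, was 0.839, 0.790 and 0.934 in Control and 0.989, 1.06 and 1.10 in Knockout. Ndufaf3 over Ndufaf4 was 0.659, 0.582 and 0.595 in Control and 0.547, 0.558 and 0.454 in Knockout. Ndufaf2 over Ndufa12, which are related proteins, overlapped at 0.0884, 0.0974 and 0.104 in Control and 0.0851, 0.0911 and 0.108 in Knockout. These ratios were chosen after the values of the genes were known.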
